A study of Mus musculus with 8 samples.

Results

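The molecular clock was read in eyecups, which hold the retinal pigment epithelium (RPE), of mice lacking Bbs8 through 10 of its core and output genes. The genes were the activators Arntl, Clock and Npas2, the period genes Per1, Per2 and Per3, the nuclear receptors Nr1d1 and Nr1d2, and the output factors Dbp and Tef. They were chosen by name from the 31053 gene identifiers counted, and all 10 were found under their symbols and passed the filter of at least 1 CPM (counts scaled to the library total) in at least 4 libraries, as did 13813 genes in all. None of the 10 was called different between the genotypes at a false discovery rate (FDR) of 0.05. Expression had been measured by QuantSeq 3′ sequencing, which counts reads at the 3′ end of polyadenylated transcripts, in RPE eyecups at postnatal day 11 (P11). The eyecup is what stays of the eye once cornea, lens, retina, optic nerve, muscle and fat are taken off, and it holds choroid and sclera as well as RPE.

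There were 4 wild-type littermate controls (Bbs8+/+) and 4 knockouts (Bbs8-/-), all described as mice of the strain labelled C57/Bl6, untreated and housed in a light/dark cycle. The labels gave no sex. Every library held both Xist, the RNA of the inactive X chromosome of females, at 571 to 747 CPM, and RNA of Y-linked genes, at 59.1 to 120 CPM in sum, which a single mouse of either sex would not usually give. A library may therefore not be 1 animal, although the methods of the study count each animal as a biological replicate and the labels do not mention pooling. The p-values measure the spread between these libraries. Bbs8, listed as Ttc8, encodes a subunit of the BBSome, a complex that moves cargo at the primary cilium. The knockout was constitutive, which means that every cell type of the eye carried it. The labels gave neither the hour of collection nor a batch. The hour of collection and the genotype therefore cannot be told apart for genes whose level follows the time of day. In such bulk samples, fewer cells of a type and less RNA per cell cannot be told apart either.

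The mammalian clock is a transcriptional loop that runs in most cells of the body, the RPE and the neural retina among them. ARNTL (also called BMAL1) pairs with CLOCK, or with its relative NPAS2, and drives genes through E-box sequences, among them the Per and Cry genes, whose proteins then shut the pair off. A further loop runs through the receptors NR1D1 and NR1D2 (REV-ERB alpha and beta), which are driven by the same pair and repress Arntl at ROR response elements. Dbp and Tef encode PAR bZIP factors that pass the rhythm to other genes through D-boxes. Arntl and the genes it drives peak at opposite times of day in rhythmic tissues, so their levels show the phase at which a tissue was collected. In the eye the clock is known for timing the daily burst in which the RPE engulfs photoreceptor tips.

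The letters through which these arms act were looked up in the RefSeq promoters of the GRCm38.p6 assembly, from 250 bases before to 50 bases after each start. Of the members, 9 had entries, with 14 promoters between them. Per2 had none. The motifs searched, on both strands, were the E-box CACGTG, the D-box as TTATGTAA or TTACGTAA, and the core of the ROR response element as TAGGTCA or TGGGTCA, and no match of one overlapped a match of another. The matches are printed from the gene's own strand, with the motif in capitals.
Arntl, ROR element core, chr7:113207515-113207560, plus strand: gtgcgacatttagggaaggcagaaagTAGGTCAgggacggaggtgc
Per1, E-box, chr11:69098757-69098814, plus strand: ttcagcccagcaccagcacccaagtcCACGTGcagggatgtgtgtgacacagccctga
Per3, D-box, chr4:151044837-151044896, minus strand: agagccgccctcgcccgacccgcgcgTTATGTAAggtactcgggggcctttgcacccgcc
Per3, D-box, chr4:151044790-151044849, minus strand: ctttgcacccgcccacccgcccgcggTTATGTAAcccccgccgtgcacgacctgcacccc
Tef, E-box, chr15:81802520-81802577, plus strand: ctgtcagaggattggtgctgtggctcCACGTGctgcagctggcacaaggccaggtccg
Tef, E-box, chr15:81811250-81811307, plus strand: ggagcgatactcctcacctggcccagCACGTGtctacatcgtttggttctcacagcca

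The E-box stood in 7.15% of all 32851 promoters of this length, the ROR element core in 6.45% and the D-box in 1.06%. Among the 14 member promoters, 3 held an E-box, 1 the ROR element core and 1 the D-box. Clock, Npas2, Nr1d1, Nr1d2 and Dbp had no match in these windows. The Per3 promoter held its D-box at 2 places, which began at positions -205 and -158 from the start site. The 2 Tef sequences came from different promoters of the gene. The E-box of Per1 began at position -166 from its start site, and the ROR element core of Arntl lay behind the start. A match describes the sequence only, and no match says only that these letters are not in the window.

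The targeted gene was checked first. Ttc8 was read at 14.7, 19.7, 18.2 and 21.7 CPM in the controls and at 9.72, 3.66, 2.30 and 4.21 CPM in the knockouts. The groups did not overlap, and Ttc8 fell by 1.95 on the log2 scale (edgeR quasi-likelihood test, FDR = 2.75e-06). Libraries held 1636725 to 2884983 gene counts, so that 3 counts, taken as the smallest level the depth could show, were worth 1.04 to 1.83 CPM scaled by total counts. The CPM values of genes and lists are, unless said otherwise, normalized by trimmed mean of M values (TMM), given in the order of replicates 1 to 4, and summarised as mean ± SD with n = 4 per genotype. Fold changes are on the log2 scale, knockout over control, with 95% intervals and adjusted p-values from edgeR's quasi-likelihood test across all 13813 genes.

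Of all genes tested, 1.1% were called higher in the knockouts and 1.14% lower at FDR 0.05, against 0 of 10 clock genes in either direction. At an unadjusted p under 0.05, 3 clock genes (Per3, Tef and Nr1d1) lay higher and 0 lower, where the shares of all genes were 6.38% and 6.6%. DESeq2 gave the same counts, 0 at FDR 0.05 and 3 at the unadjusted threshold. The 4 knockout libraries lay above all 4 controls for 2 clock genes, Per3 and Tef, and below them for 0, where 3.62% and 3.76% of all genes did so. Mean levels were higher in the knockouts for 5 members and lower for 5, and the median log2 fold change was 0.0057, beside -0.0041 over all tested genes.

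A 3′ library takes about 1 read per transcript whatever its length, so levels in CPM may be set side by side between genes without a correction for length. Of reads with 1 alignment, 42.1 to 43.4% in the controls and 44.1 to 44.4% in the knockouts fell in no annotated gene. A gene whose 3′ end lies outside the annotation could therefore read too low. Over the 8 libraries Tef was the highest member at a mean of 246 CPM, above 96.6% of the tested genes. Per3 at 114 CPM and Clock at 113 CPM came next and overlapped each other, followed by Nr1d2 at 92.1 CPM and Dbp at 74.9 CPM. Nr1d1 at 25.4 CPM, Arntl at 16.7 CPM, Per2 at 13.2 CPM, Per1 at 8.53 CPM and Npas2 at 2.23 CPM formed the lower end, Npas2 above only 9.14% of the tested genes. The ranges over the 8 libraries were separate at only 2 steps of this order, between Tef and Per3 and between Dbp and Nr1d1, and overlapped between all other neighbours. In each of the 8 libraries Clock RNA lay above that of its partner Arntl, and Per3 above Per1 and Per2.

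**Figure D1:**
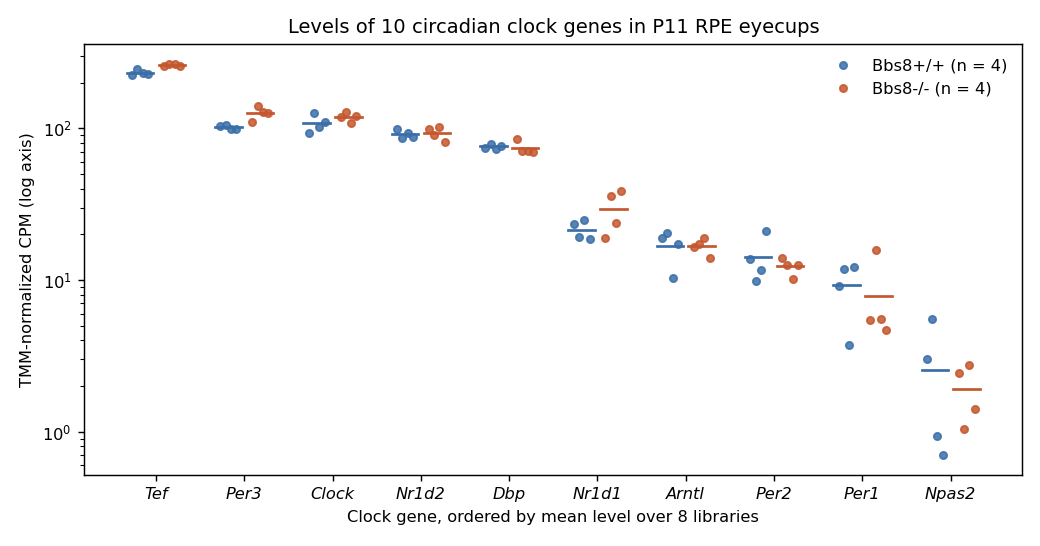
TMM-normalized CPM (log axis) of the 10 clock genes in the 4 Bbs8+/+ libraries (blue points) and the 4 Bbs8-/- libraries (orange points), with the mean of each genotype as a line. Tef and Per3 are the members whose knockout points all lie above the control points, and Per1 shows 1 knockout point at 15.7 CPM apart from the other 3.

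Arntl (ENSMUSG00000055116, chr7:113207465-113314126, plus strand, GRCm38), the activator whose loss alone stops daily rhythms, was read at 19.0, 20.5, 10.3 and 17.1 CPM in the controls. The knockouts gave 16.4, 17.3, 18.8 and 14.03 CPM. All knockout values lay inside the range of the controls, with control replicate 3 the lowest of the 8 libraries. The log2 fold change was -0.02 (95% interval -0.49 to 0.46, FDR = 0.989), which leaves a fold between 0.71 and 1.38.

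Clock (ENSMUSG00000029238, chr5:76209868-76304792, minus strand), the DNA-binding partner of ARNTL, was read at 92.8, 126, 102 and 110 CPM in the controls and at 118, 129, 108 and 120 CPM in the knockouts. The genotypes overlapped, with 1 knockout library above all controls. Its log2 fold change was 0.13 (95% interval -0.06 to 0.33, FDR = 0.628). Npas2 (ENSMUSG00000026077, chr1:39193731-39363236, plus strand), which can stand in for Clock, was close to the limit of the depth, with 7, 14, 2 and 2 counts in the controls and 4, 2, 6 and 3 in the knockouts. Its log2 fold change of -0.41 had an interval from -1.79 to 0.98 (FDR = 0.877), which leaves a fold between 0.29 and 1.97.

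Per1 (ENSMUSG00000020893, chr11:69095217-69109960, plus strand), the period gene that responds to light and hormones as well as to the clock, was read at 9.06, 11.8, 3.74 and 12.2 CPM in the controls. The knockouts gave 5.47, 15.7, 5.51 and 4.68 CPM. Knockout replicate 2 was the highest of the 8 libraries and the other 3 knockouts lay low, but control replicate 3 was lower still, so the groups overlapped. Knockouts and controls differed by a log2 fold change of -0.26 (95% interval -0.95 to 0.43, FDR = 0.830), and it ran from -0.83 without that knockout library (FDR = 0.402) to -0.072 without knockout replicate 4 (FDR = 0.973).

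Per2 (ENSMUSG00000055866, chr1:91415982-91459324, minus strand), a central repressor of the loop, was read at 13.8, 9.84, 11.7 and 20.98 CPM in the controls and at 13.97, 12.6, 10.1 and 12.6 CPM in the knockouts. All knockout values fell within the range of the controls. The log2 fold change was -0.21 (95% interval -0.75 to 0.32, FDR = 0.817).

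Per3 (ENSMUSG00000028957, chr4:151003652-151044665, minus strand), whose promoter carries the pair of D-boxes printed above, was the member closest to the threshold. It was read at 104, 106, 99.2 and 98.2 CPM in the controls, or 102 ± 3.57, and at 109, 140, 129 and 126 CPM in the knockouts, or 126 ± 12.5. Every knockout library lay above every control, the first of them by the least. The log2 fold change was 0.31 (95% interval 0.12 to 0.51), a fold of 1.24 (1.08 to 1.42), with an unadjusted p of 0.00187 and FDR = 0.0686 by edgeR's quasi-likelihood test. It did not pass. Without the first knockout library it did, at a log2 fold change of 0.37 (FDR = 0.0348), and its FDR stayed above the threshold when any other library was left out (highest 0.246).

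Nr1d1 (ENSMUSG00000020889, chr11:98767932-98775333, minus strand), the repressor of Arntl with a strong daily rhythm in most tissues, was read at 23.3, 19.3, 24.8 and 18.5 CPM in the controls. The knockouts gave 18.8, 35.6, 23.9 and 38.8 CPM. The knockouts divided, with replicates 2 and 4 above all controls and replicates 1 and 3 inside their range. The log2 fold change was 0.47 (95% interval 0.06 to 0.87, FDR = 0.281), and it ran from 0.30 to 0.62 when single libraries were left out. Exons of Nr1d1 and of Thra, on the opposite strand, share 263 bases of chromosome 11 (98768157 to 98768419), which begin 225 bases from the end of Nr1d1. Whether reads were counted by strand is not given in the sources used here. The counter set aside 9233 to 15657 reads a library as ambiguous between genes. Without strand, reads in that stretch could have been set aside and so lost to Nr1d1. Thra itself stood at 245 CPM in the knockouts and 244 CPM in the controls.

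Nr1d2 (ENSMUSG00000021775, chr14:18204054-18239127, minus strand), the second receptor of the pair, was read at 98.4, 86.6, 92.6 and 87.1 CPM in the controls and at 99.0, 89.9, 102 and 80.9 CPM in the knockouts. The knockouts reached both above and below the controls. This gave a log2 fold change of 0.03 (95% interval -0.19 to 0.24, FDR = 0.954), which leaves a fold between 0.88 and 1.18.

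Dbp (ENSMUSG00000059824, chr7:45705088-45710203, plus strand), an output gene of very wide daily swing in rhythmic tissues, was read at 74.2, 79.2, 73.0 and 76.9 CPM in the controls. The knockouts gave 84.4, 71.1, 70.7 and 69.7 CPM. The first knockout library was the highest of the 8, and the other 3 lay just below all controls. For Dbp the log2 fold change was -0.04 (95% interval -0.28 to 0.19, FDR = 0.934). The 3′ end of Dbp shares 539 exonic bases of chromosome 7 (45709665 to 45710203) with Sphk2 on the opposite strand, so its reads carry the same uncertainty of strand, with Sphk2 itself at 21.2 CPM over the 8 libraries.

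Tef (ENSMUSG00000022389, chr15:81802421-81826863, plus strand), the relative of Dbp with a shallower rhythm, was read at 224, 245, 231 and 227 CPM in the controls, or 231 ± 9.28. The knockouts gave 258, 264, 266.9 and 257 CPM, or 261 ± 4.71. Every knockout library lay above every control. The difference was 0.18 on the log2 scale (95% interval 0.03 to 0.32), a fold of 1.13 (1.02 to 1.25), and it did not pass the test across all genes (unadjusted p = 0.0164, FDR = 0.239, edgeR quasi-likelihood test). Over the 14 alternative analyses its FDR stayed between 0.185 and 0.390.

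**Figure D2:**
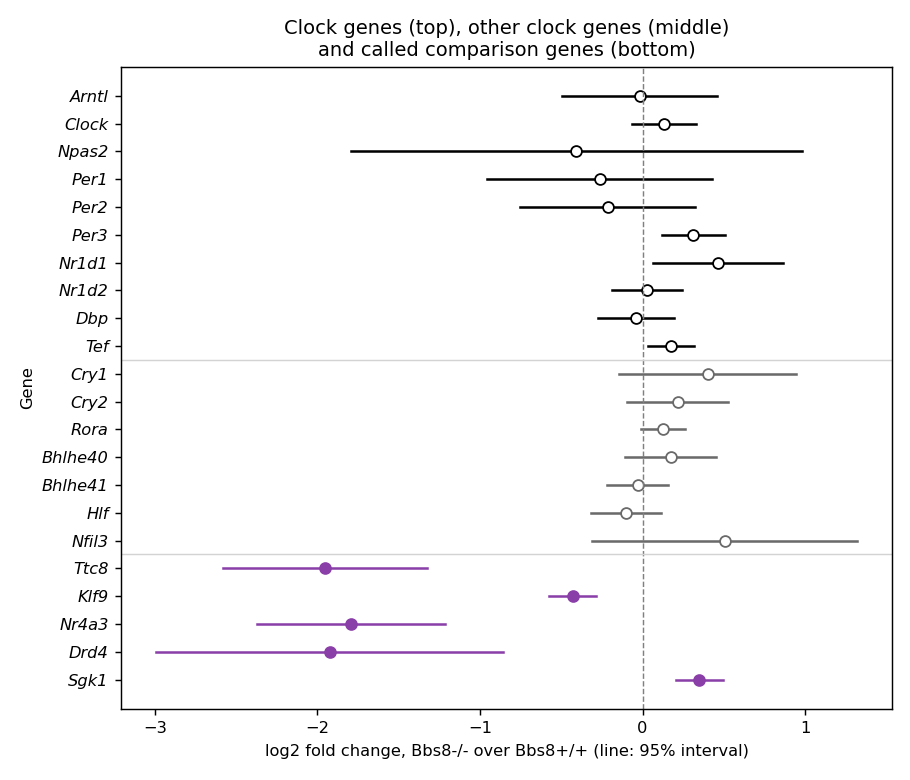
Log2 fold change, Bbs8-/- over Bbs8+/+, with its 95% interval as a line, for the 10 clock genes (top), 7 other clock genes (middle), and Ttc8 with the 4 called genes of the other lists (bottom). Filled points passed FDR 0.05, and no point of the top or middle block did, with Per3 and Nr1d1 the members whose intervals lie farthest from 0.

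The intervals set the size of difference that the data still allow. For 6 of the 10 members the interval lay within 1.5-fold either way, and for 9 within 2-fold, all but Npas2. A p that misses the threshold does not show that the genotypes were alike.

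Summed over the arms of the loop, the activators came to 127 ± 18.2 CPM in the controls and 137 ± 7.26 CPM in the knockouts, with overlapping libraries. The period genes came to 125 ± 7.26 and 146 ± 16.2 CPM, and the receptors to 113 ± 8.16 and 122 ± 4.06 CPM, also with overlap. Dbp and Tef together came to 307 ± 11.3 CPM in the controls and 335 ± 6.76 CPM in the knockouts, where the highest control stood at 324 CPM and the lowest knockout at 326 CPM. This separation was lost when CPM were scaled by total counts alone (highest control 326, lowest knockout 320 CPM). The period, receptor and output genes, 7 in all, summed to 545 ± 8.96 CPM in the controls and 604 ± 18.4 CPM in the knockouts, with no overlap under either scaling. All 10 members together were also separate, at 649 to 709 CPM in the controls and 725 to 775 CPM in the knockouts. Tef and Per3, described above as separate, supplied most of the step in both sums, while Per1, Per2 and Dbp had lower means in the knockouts. The ratio of the 7 genes to the activators, whose sum is mostly Clock, was 4.35 ± 0.527 in the controls and 4.41 ± 0.191 in the knockouts, and the libraries overlapped. These sums and ratios are descriptions with no test.

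**Figure D3:**
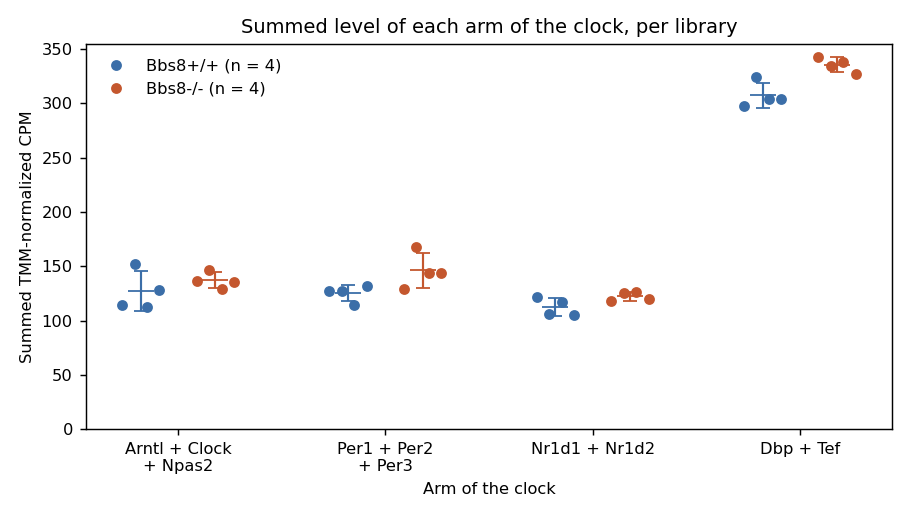
Summed TMM-normalized CPM of each arm of the clock in each library (points, blue Bbs8+/+ and orange Bbs8-/-), with the mean and SD of each genotype as a bar. The points of the genotypes overlap in the first 3 arms, and those of Dbp and Tef stand apart by the small gap between 324 and 326 CPM.

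The ratio of Nr1d1 to Arntl, the repressor to its target, was 1.42 ± 0.673 in the controls and 1.81 ± 0.755 in the knockouts. It ran from 0.942 to 2.41 in the controls and from 1.15 to 2.77 in the knockouts, so that the spread inside each genotype was wider than the step between them.

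The members differed in how far libraries of 1 genotype lay apart. The coefficient of variation (CV) of Tef was 4.01% in the controls and 1.802% in the knockouts, no more than the 4.19% and 4.41% that counting error alone gives at its depth. For Per1 the CV was 42.4% in the controls and 67.0% in the knockouts, where counting error gives 20.6% and 25.6%. Clock, Per2 and Npas2 spread by 13.3%, 34.6% and 88.1% in the controls, where counting error gives 6.12%, 16.8% and 40%. In the knockouts they spread by 7.16%, 13.1% and 42.7%, where it gives 6.55%, 20.4% and 51.6%. Nr1d1 spread by 32.3% in the knockouts, where counting error gives 13.1%, but by 14.2% in the controls, where it gives 13.8%. Per1 and Nr1d1 were both high in knockout replicate 2, while in knockout replicate 4 Nr1d1 was high and Per1 was the lowest of the knockouts. With 4 libraries a genotype, the difference in spread was not tested.

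**Figure D4:**
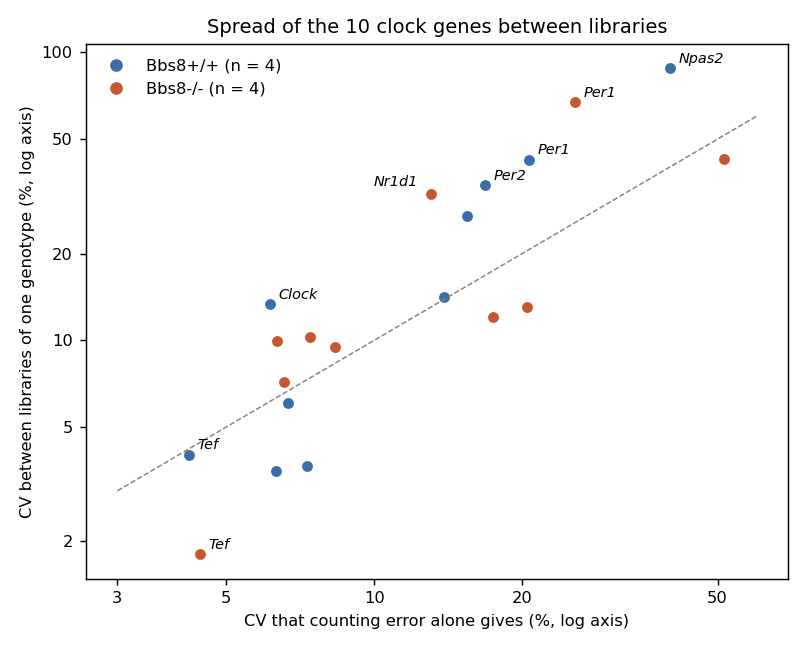
Coefficient of variation between the 4 libraries of a genotype (y axis, %) against the one that counting error alone gives at the gene's depth (x axis, %), both on log axes, for the 10 clock genes in Bbs8+/+ (blue) and Bbs8-/- (orange), with equality as the dashed line. Tef and the points farthest above the line in ratio are named, Per1 in both genotypes and Nr1d1 in the knockouts among them.

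Among the profiles most like that of Arntl over the 8 libraries, out of 9041 genes with a mean of at least 10 CPM, were those of Cul2 and Tmem164, with root mean square differences of 0.080 and 0.097 on the log2 scale once each profile was centred. The profiles most like that of Dbp were Dnajc3, Ehmt2 and Arl1, with differences of 0.031, 0.046 and 0.054. The genes were picked for this likeness, so what they share with Arntl or Dbp is no finding.

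The rest of the clock was read from fixed lists beside the members. Of 13 other core genes, 0 were called in either direction, and their median log2 fold change was 0.13. The cryptochromes Cry1 and Cry2, partners of the period proteins, gave log2 fold changes of 0.40 (FDR = 0.586) and 0.22 (FDR = 0.614) by edgeR. Rora, the activator that competes with NR1D1 at ROR response elements, was read at 282 ± 5.36 CPM in the controls and 308 ± 7.63 CPM in the knockouts. Its log2 fold change was 0.13 (FDR = 0.440), with no overlap between the genotypes.

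The repressors Bhlhe40 and Bhlhe41, which compete at E-boxes, gave 0.17 and -0.03 on the log2 scale, and the PAR bZIP factor Hlf gave -0.10. Nfil3, which represses at D-boxes, gave 0.50 (95% interval -0.31 to 1.32). Ciart was read at only 1 to 6 counts a library, and its log2 fold change of 1.33 did not pass (FDR = 0.501). Among 8 genes of clock protein turnover 0 were called, with the casein kinases Csnk1d and Csnk1e, which mark the period proteins for decay, at -0.10 and -0.19. Of 6 output genes 0 were called as well. At an unadjusted p under 0.05 these 3 lists held 0, 0 and 1 genes, the last being Id2, higher in the knockouts and named after its value was seen.

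Calls appeared in the lists that border on the clock. Of 45 tested genes in all the other lists, 1 was called higher and 3 lower by edgeR, and 1 higher and 2 lower by DESeq2, where edgeR called 1.1% of all genes higher and 1.14% lower. Klf9, a factor induced by glucocorticoid and thyroid hormone that also follows the daily rhythm, was read at 310, 306, 304 and 287 CPM in the controls and at 234, 252, 218 and 194 CPM in the knockouts. It fell by 0.43 on the log2 scale (edgeR FDR = 8.11e-06), with all knockouts below all controls. Sgk1, a kinase induced by serum and glucocorticoid, rose by 0.35 on the log2 scale, from 262 ± 21.4 CPM in the controls to 334 ± 46.0 CPM in the knockouts (edgeR FDR = 0.000502), and this call was lost without knockout replicate 4 (FDR = 0.0532).

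The glucocorticoid-responsive genes thus did not move one way. Of 6 tested, 1 was called higher and 1 lower, and Tsc22d3, which is induced by glucocorticoid, was read at 48.2 ± 7.25 CPM in the controls and 35.0 ± 2.49 CPM in the knockouts without passing (log2 fold change -0.47, FDR = 0.0942). Of 9 tested immediate early genes only Nr4a3, an orphan nuclear receptor, was called. Nr4a3 fell by 1.79 on the log2 scale, from 19.9 ± 1.49 to 5.70 ± 2.00 CPM (edgeR FDR = 2.96e-06). By log2 fold change 3 of the 9 lay higher and 6 lower, and 1 each way had no overlap between the genotypes.

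Of 8 genes of retinal rhythm and light input only 3 could be tested, and 4 had no count in any library (Opn5, Mtnr1a, Mtnr1b and Adcyap1). Drd4, the dopamine receptor of photoreceptors whose RNA cycles daily, was read at 6.90, 5.12, 10.3 and 6.29 CPM in the controls and at 4.86, 2.09, 0 and 0.935 CPM in the knockouts. It fell by 1.92 on the log2 scale (edgeR FDR = 0.0281), and the log2 fold change was -2.80 without knockout replicate 1 and -1.48 without knockout replicate 3. The call was lost without control replicate 1 or 3, without knockout replicate 2, 3 or 4, and by DESeq2 (FDR = 0.0514 to 0.177 over these settings).

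Summed marker levels of several cell types also differed between the genotypes. The summed level of 12 RPE markers was 18605 to 19513.9 CPM in the controls and 19639.7 to 20025.2 CPM in the knockouts, with 1 marker called higher and 2 lower. The 12 photoreceptor markers summed to 488 to 542 CPM in the controls and 374 to 452 CPM in the knockouts, with 2 called lower, and the 12 lens markers to 210 to 237 and 355 to 378 CPM, with 6 called higher. Choroidal melanocyte markers (10 genes, 6 called lower) ran from 13420.6 to 14032.7 CPM in the controls and from 11204 to 11788 CPM in the knockouts, and fibroblast markers (8 genes, 3 called lower) from 35746 to 37667.9 and from 28342.6 to 29476.8 CPM. Inner retinal markers (10 genes, 0 called, with Grm6, Slc32a1, Cabp5 and Slc17a6 too low to test), skeletal muscle markers (12 genes, 1 called higher) and endothelial markers (8 genes, 0 called) overlapped between the genotypes. The Y-linked and X-inactivation RNAs, for which no sex was labelled, differed with genotype too. The 4 Y-linked genes, 3 of them called higher, summed to 59.1 to 65.0 CPM in the controls and 108 to 120 CPM in the knockouts, and Xist, called lower, ran from 641 to 747 and from 571 to 626 CPM. The part of these shifts in the levels of Per3, Tef, Rora, Klf9, Sgk1, Nr4a3 and Drd4 was not tested.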

How the data were processed

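RNA of 8 RPE eyecup samples was sequenced at P11. The deposited files held unnormalized gene counts of reads with 1 alignment, which the authors made by trimming with BBDuk, aligning with STAR to mm10 and counting with htseq-count. The strand setting is not given in the sources used here, and no molecular identifiers were named, so floors cover counting error only. Of 31053 identifiers, 31011 matched the GENCODE M21 annotation of GRCm38. The counter's summary lines were left out of the tests.

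Counts were tested in edgeR 4.0.16 (R 4.3.3, limma 3.58.1) with TMM normalization, genotype as the only factor, a two-sided quasi-likelihood F test and Benjamini-Hochberg adjustment over 13813 genes. Intervals took the SE as the log2 fold change over the root of F. The steps were tested on simulated data with known changes. There edgeR called 43 of 100 genes changed 1.5-fold and 68 of 100 changed 2-fold. DESeq2 1.42.0, other scalings and filters, a replicate block and leaving out each library were the alternatives. Same-numbered libraries deviated together with correlations of only -0.029 to 0.019, so the numbers did not pair them. Replicates of each genotype differed by more than sampling noise.

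The members and lists were chosen with earlier results of these data known. Named were all members, called genes of the other lists with 13 set ones, and the 3 profiles nearest to Arntl and to Dbp. Some items are not reported here.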

Additional observations from a re-analysis of the deposited data

Results flagged for a closer look

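In 5 of 68 groups of 4 libraries, 1 library stood apart from the other 3 beyond Dixon's 95% critical value for 4 samples, where chance gives about 3.4. Per1 was 15.7 CPM in Bbs8-/- replicate 2 and 4.68 to 5.51 CPM in the other knockouts. Dbp was 84.4 CPM in Bbs8-/- replicate 1 and 69.7 to 71.1 CPM in the others. Ciart was 1.05 CPM in Bbs8-/- replicate 2 and 2.76 to 3.04 CPM in the others, at a handful of counts each. Tsc22d3 was 59.1 CPM in control replicate 4 and 44.0 to 45.4 CPM in the other controls, and 38.7 CPM in Bbs8-/- replicate 2 beside 33.5 to 34.0 CPM in the other knockouts.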

How the results depend on the processing

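Over 14 alternatives, 114 to 173 genes were called higher and 105 to 172 lower. Of 139 values of the members, 131 kept their direction and their side of the threshold, 1 gained a call and 7 changed sign. With single libraries left out, 0 to 1 members were called higher (Per3 without Bbs8-/- replicate 1) and 0 lower, and in the other lists 0 to 1 genes were called higher. Over the same settings the log2 fold change of Arntl ran from -0.18 to 0.097, of Npas2 from -0.74 to 0.32, of Per2 from -0.35 to 0.060, of Nr1d2 from -0.022 to 0.092, of Bhlhe41 from -0.072 to 0.037 and of Hlf from -0.17 to 0.016. None of these 6 genes was called under the alternatives that gave it an adjusted p (for Npas2, DESeq2 gave none and filterByExpr left the gene out). The replicate block, whose numbers did not pair the libraries, gave 134 genes higher and 129 lower and 0 members called, and turned Arntl to 0.0072. The median log2 fold change of the members rose to 0.15 without control replicate 2. The cause of these shifts was not tested. Among the members depth limits Npas2 most, at 14 counts or fewer in every library.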
